A study of Homo sapiens with 12 samples.

Results

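The cytosolic ribosomal proteins were taken as every row of the expression table whose single gene symbol begins with RPL or RPS and a digit, or is RPLP0, RPLP1, RPLP2 or RPSA, without RPS6K kinases, RPS4Y genes, pseudogenes and antisense RNAs. The rule found 98 rows, each the summary of one set of probes, for 65 genes, out of 32321 rows and 18404 named genes. Of the 65 genes, 57 encode core proteins of the ribosome and 8 are paralogs of core genes (RPL3L, RPL7L1, RPL10L, RPL22L1, RPL26L1, RPL36AL, RPL39L and RPS27L). A single row represented 43 genes and several rows represented 22. Rows that carry several symbols were left out, and other core genes were not analysed here.

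The 12 arrays came from U-HO1 and L-1236, both human Hodgkin lymphoma cell lines, with 3 arrays in each of 4 groups: U-HO1 with an shRNA against GATA-3, U-HO1 with a non-functional control shRNA, L-1236 with the GATA-3 shRNA, and L-1236 with the control shRNA. U-HO1 was grown in IMDM and L-1236 in RPMI 1640, so line and medium cannot be told apart. All cells, controls included, were transduced, kept in culture for 3 days and sorted for GFP, and the RNA of 25000 GFP-positive cells was amplified before hybridisation to whole-transcript arrays. The submitters describe the 3 samples per condition as independent without saying how they were separated, so p-values here measure only how these arrays scatter. Sample names say siGATA-3 and siSCR where the protocol says shRNA.

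A ribosome reads mRNA on its small subunit and joins amino acids on its large subunit, and each subunit is a scaffold of ribosomal RNA that carries single copies of most ribosomal proteins. The proteins are made in the cytoplasm, imported into the nucleolus, assembled on ribosomal RNA and exported again, and unassembled copies are degraded. Their mRNAs are among the most abundant in growing cells. Most begin with a C followed by a run of pyrimidines, the terminal oligopyrimidine (TOP) start, through which mTOR and LARP1 control their translation. Levels of mRNA therefore need not follow the rate at which ribosomes are made.

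The arrays resembled one another closely. Deposited values, taken here as log2, ran from 3.86 to 13.99, array medians from 6.96 to 7.09, and correlations between arrays were 0.986 to 0.995 within a line and 0.939 to 0.951 between lines. Of 6 Hodgkin markers, TNFRSF8 (CD30) lay between 9.36 and 10.50, IRF4 between 11.04 and 11.55, FSCN1 between 10.58 and 12.28, FUT4 (CD15) between 8.59 and 9.00 and CCL17 between 8.16 and 9.17 on the 12 arrays. The sixth, CCL22, lay between 6.75 and 7.39 in U-HO1, around the array medians, against 8.31 to 9.69 in L-1236. The mean of 9 rows for T-cell, myeloid, erythroid, epithelial and stromal genes lay between 6.23 and 6.46 on every array, below every array's median. Among these 9, COL1A1 read 7.68 to 8.10 on the 12 arrays, above every array median, and CSF1R read 6.90 to 7.26 in U-HO1 and 7.19 to 7.42 in L-1236. GATA3, the targeted gene, had values of 11.07, 10.12 and 10.22 on the U-HO1 arrays labelled knockdown, against 11.24, 10.90 and 10.24 on those labelled control. In L-1236 the values were 10.80, 10.00 and 10.24 on the arrays labelled knockdown, against 10.29, 10.69 and 9.95 on those labelled control. The groups overlapped in both lines (differences of -0.32 and 0.04, 2-sided exact permutation p = 0.5 and 0.9, smallest possible 0.1), and the knockdown is therefore named below only as a label of the arrays.

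The start of the transcript shows what most of the members share in sequence. RefSeq starts (GRCh38.p14) were matched for 54 of the 65 genes. Where RefSeq lists several starts for a gene, the one with the longest pyrimidine run was used, for members and all other genes alike. A C at the first transcribed base followed by 4 letters that are each C or T, read on the gene's own strand only, was present in 36 of 48 core genes (75%) and in RPL22L1 alone of 6 paralogs. It was present in 6.34% of 13766 protein-coding genes with a row, and in 5.12% of all 27305 starts in the table. The 8 starts printed here belong to RPL13, RPS15 and RPS27, which are given in every comparison, and to 5 genes that differed between the lines. Each runs from 15 bases before to 15 bases into the transcript, and capitals mark the unbroken pyrimidine run from the first transcribed base.
RPL13: ttgcggggccgcttcCTTTCCgctcggctg
RPS15: tgcgcaggcgcggacCaaagcgatctcttc
RPS27: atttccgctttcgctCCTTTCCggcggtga
RPL26: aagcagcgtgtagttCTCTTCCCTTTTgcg
RPL31: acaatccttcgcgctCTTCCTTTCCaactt
RPL29: caccgcagcccctttCTCTTCCggttctag
RPL36AL: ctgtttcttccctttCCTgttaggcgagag
RPL26L1: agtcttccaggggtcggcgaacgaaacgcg
The windows lie at chr16:89560667-89560696 (plus strand) for RPL13, chr19:1438381-1438410 (plus) for RPS15, chr1:153990747-153990776 (plus) for RPS27, chr17:8383179-8383208 (minus) for RPL26 and chr2:101002274-101002303 (plus) for RPL31. Those of RPL29, RPL36AL and RPL26L1 lie at chr3:51995881-51995910 (minus), chr14:49620612-49620641 (minus) and chr5:172958714-172958743 (plus). RPL26, RPL31, RPL29, RPS27 and RPL13 carry runs of 12, 10, 7, 7 and 6 pyrimidines, while RPS15 begins with a single C and RPL26L1 with none. Among the core genes with a start, the TOP letters stood at 6 of 12 genes with a row higher in U-HO1 (test below), at 4 of 5 with a row lower, and at 26 of 31 with neither. These shares were not compared by a test, and no match says only that these letters are not at the listed start.

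The clearest differences among the ribosomal protein genes lay between the lines. On the arrays labelled control, 32 of 98 rows differed between U-HO1 and L-1236 at an adjusted p under 0.05 (limma, Benjamini-Hochberg over all 32321 rows), or 32.7%, against 25.8% of all rows. Higher in U-HO1 were 25 member rows (13.3% of all rows) and lower were 7 (12.5% of all rows). With a fold of at least 1.5 as well, the count was 8 rows, or 8.16%, against 13.1% of all rows. Most called members thus differed by less than 1.5-fold. The median difference was 0.18 on the log2 scale over the members and 0.00 over all rows, and 73 of 98 member rows were positive (74.5%, against 50.2% of all rows). Rows within the quartiles of the member levels had a median of 0.08 and were positive in 57.2%. Brightness bears on the share called. Of the 16161 rows at or above the median level, where 90 of the 98 member rows lie, 40.2% were called, and of rows within the quartiles of the member levels 45.0% were. The members' 32.7% thus lay between the share of all rows and that of rows as bright, and the differences in share were not tested. In bulk RNA of this kind, fewer cells with a transcript and less of it per cell cannot be told apart.

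The lean towards U-HO1 depended on how arrays were scaled. Of the called rows, 78.1% were higher in U-HO1 as deposited, 85.3% with array medians set equal, and 63.0% with quantile normalization (17 higher, 10 lower), where the median difference was 0.07. Centring each array on its mean ribosomal protein value sets the members' balance near 0 by construction and serves here only to show which rows depart from the family. The arrays labelled knockdown gave 27 called members (24.7% of all rows), 18 higher and 9 lower, with a median of 0.07 and 59.2% of member rows positive, against 58.0% of all rows. Under all 3 of these scalings the rows of RPL26L1, RPL36AL, RPL31, RPL23A, RPL26 and RPS29 that passed both thresholds stayed higher and called, and RPL13 row 8180284 stayed lower and called, with a difference of -0.92, -0.78 and -0.97 after quantile normalization, median centring and centring on the ribosomal proteins.

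**Figure D1:**
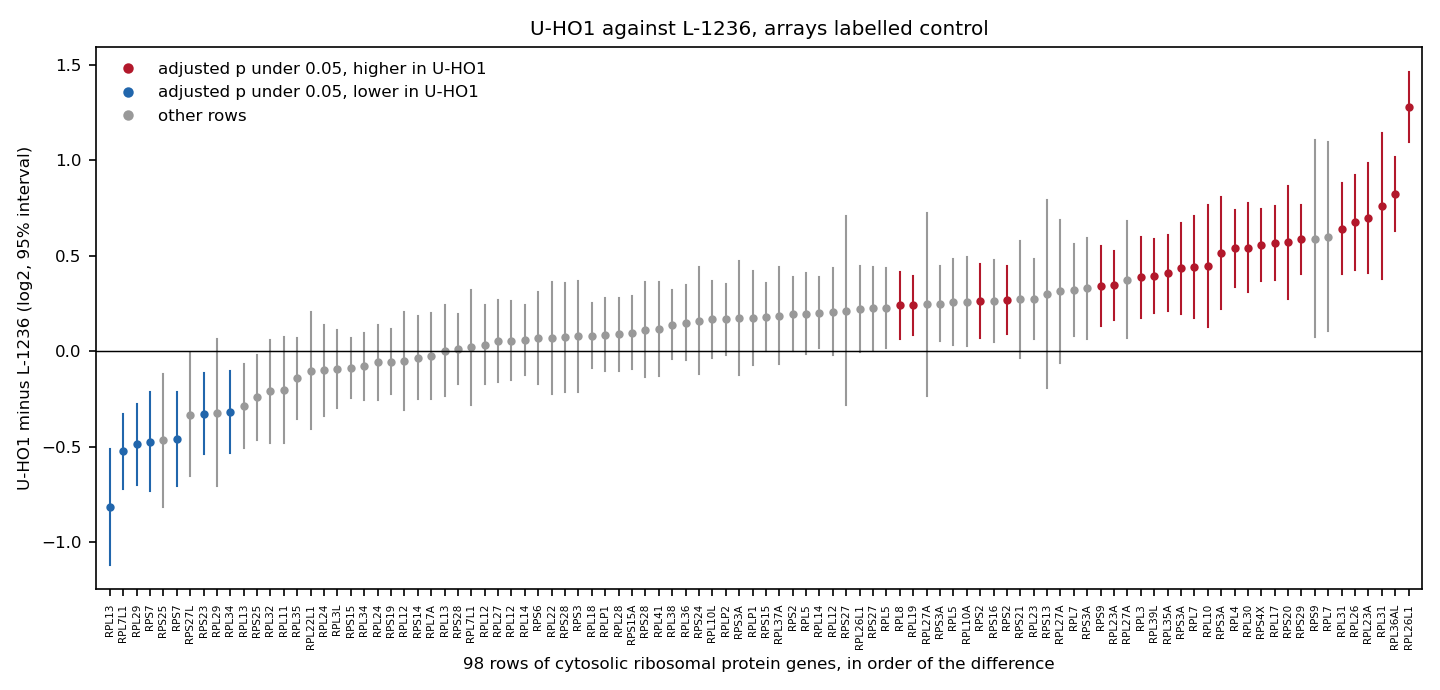
Log2 difference of U-HO1 minus L-1236 on the arrays labelled control for each of the 98 rows, with 95% intervals from limma, in order of the difference. The 25 rows called higher and 7 called lower lie at the 2 ends, from RPL26L1 at 1.28 to RPL13 at -0.81, and rows of 1 gene can stand far apart.

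RPL26L1, a paralog of the large-subunit protein RPL26 that differs from it by few residues, had the largest difference, in 1 of its 2 rows. Its row 7945740 read 9.78, 9.66 and 9.61 on U-HO1 control arrays, against 8.36, 8.52 and 8.33 on L-1236 control arrays. All 3 U-HO1 values exceeded all L-1236 values by more than the spread within either line (difference 1.28, SE 0.085, 2.43-fold, limma adjusted p = 4.01e-07). On the knockdown arrays the same row read 9.61, 9.48 and 9.58 in U-HO1 and 8.41, 8.51 and 8.66 in L-1236. The gene's other row, 8110018, differed by only 0.22 (limma adjusted p = 0.157) on control arrays but by 0.61 (limma adjusted p = 0.001) on knockdown arrays. The rows thus agree in sign and not in size. Whether the probes of row 7945740 also match copies elsewhere in the genome was not tested. RPL26 itself, which lies at the exit of the peptide tunnel, read 10.51, 10.59 and 10.57 in U-HO1, against 9.86, 9.91 and 9.89 in L-1236, a difference of 0.67 (SE 0.11, adjusted p = 0.000772).

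RPL36AL, an expressed copy of RPL36A whose protein sits near the exit site for tRNA, read 9.54, 9.61 and 9.80 in U-HO1 control arrays and 8.75, 8.79 and 8.94 in L-1236 control arrays. The groups did not overlap, and the difference was 0.82 (SE 0.089, limma adjusted p = 2.7e-05). RPS29, a small zinc-binding protein of the small-subunit head, read 7.06, 7.10 and 7.27 in U-HO1 and 6.57, 6.50 and 6.61 in L-1236 (0.59, SE 0.084, adjusted p = 0.000239). Both genes lie close together on chromosome 14. The RPS29 row was dim. Its L-1236 control values lay below every array median (6.96 to 7.09), and its U-HO1 control values lay near or above these medians.

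RPL31 and RPL23A, which sit with RPL26 around the tunnel exit where nascent chains meet their first partners, were each higher in U-HO1 by both rows. RPL31 row 8180287 read 11.67, 11.80 and 11.85 in U-HO1 and 11.04, 11.28 and 11.07 in L-1236, and its 2 rows differed by 0.64 and 0.76 (adjusted p = 0.000866 and 0.00637, limma). RPL23A row 8005943 read 11.68, 11.56 and 11.54 in U-HO1 and 10.74, 11.10 and 10.84 in L-1236, and its rows differed by 0.70 and 0.34 (adjusted p = 0.00184 and 0.00779).

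RPL13, one of the large-subunit proteins on the solvent side, had the largest decrease. Its row 8180284 read 9.00, 9.05 and 9.28 in U-HO1 control arrays, against 10.17, 9.54 and 10.07 in L-1236 control arrays, with L-1236 replicate 2 apart from the other L-1236 arrays and still above every U-HO1 value. The difference was -0.81 (SE 0.14, limma adjusted p = 0.000864), and on knockdown arrays it was -0.97. Its other rows differed by -0.29 (8180283, adjusted p = 0.0557) and 0.00 (7997933, adjusted p = 0.993). The 3 rows of RPL13 therefore disagree, and the gene is called by 1 of them.

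**Figure D2:**
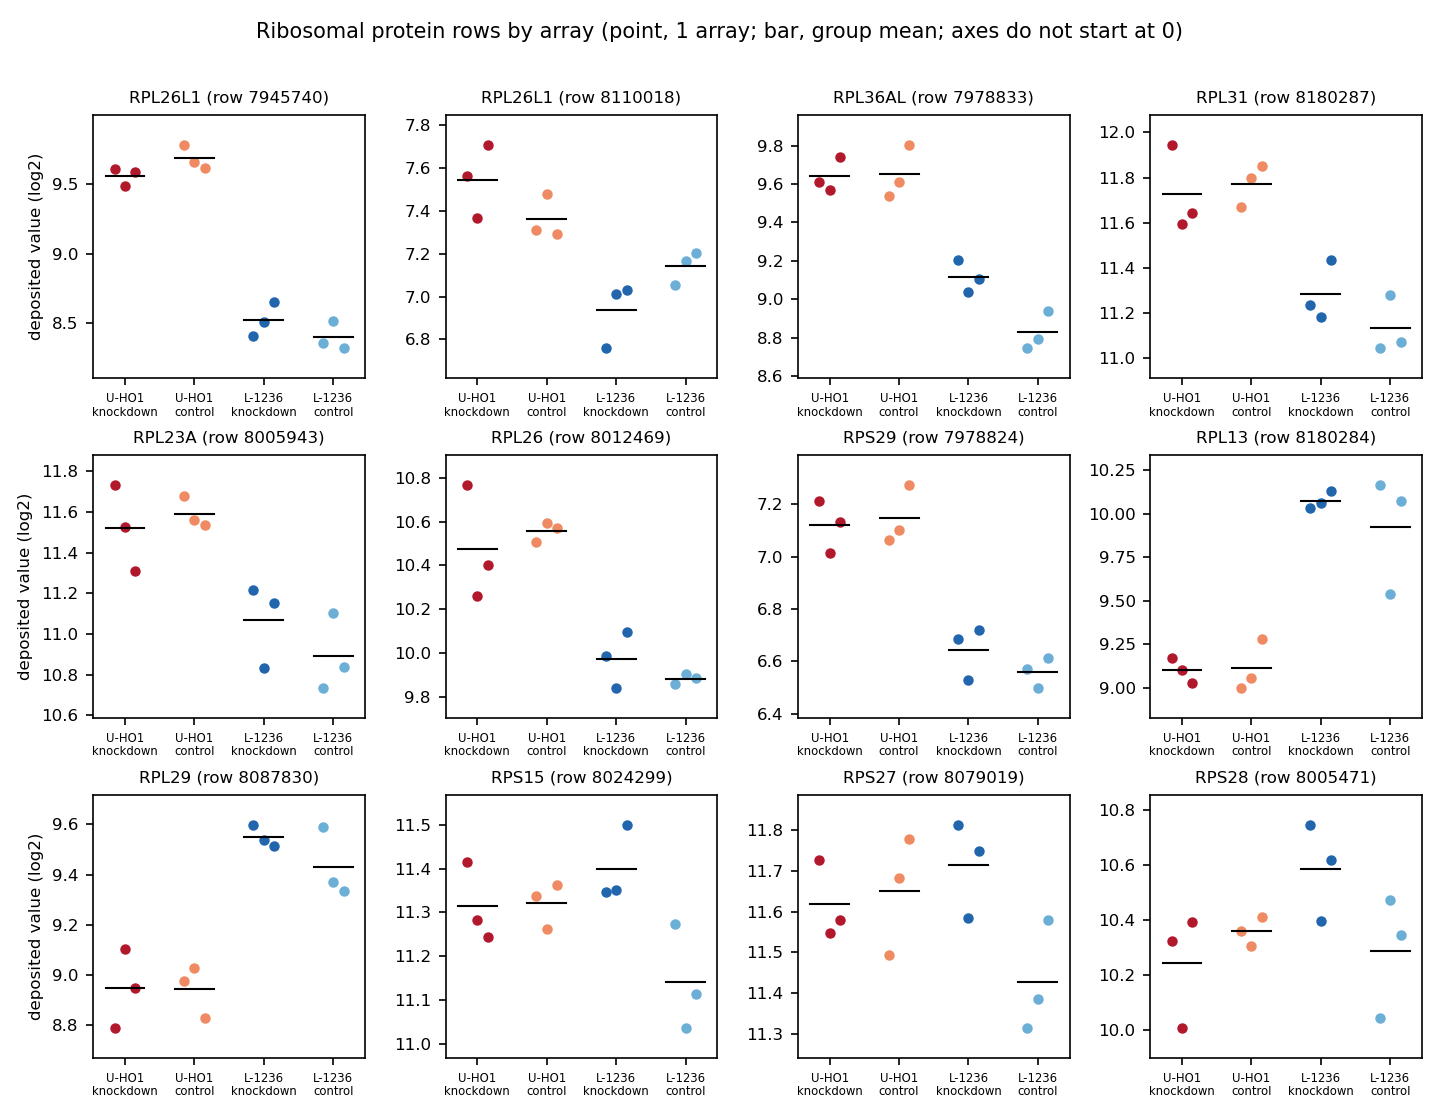
Deposited log2 values of 12 rows on every array, with points for arrays and bars for group means, U-HO1 left of L-1236 and knockdown left of control. RPL26L1, RPL36AL, RPL31, RPL23A, RPL26 and RPS29 are higher and RPL13 and RPL29 lower in U-HO1 under both labels, whereas the RPS15, RPS27 and RPS28 rows shown have their lowest group mean in L-1236 control arrays or U-HO1 knockdown arrays.

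In all, 21 genes had a row called higher in U-HO1 and 6 a row called lower, with none in both lists and 38 in neither. The small subunit contributed 11 called rows of 34 (32.4%, against 25.8% of all rows and 40.2% of rows at or above the median level), of which 8 were higher. Higher were rows of RPS2, at the mRNA entrance, RPS3A, RPS4X, RPS9, RPS20 and RPS29. Lower were both rows of RPS7 and the row of RPS23, a protein of the decoding centre. RPS4X, the X-linked copy of RPS4, read 12.07, 12.05 and 12.12 in U-HO1 and 11.57, 11.57 and 11.44 in L-1236 (0.56, SE 0.087, adjusted p = 0.00048). RPS7, which binds MDM2 when it is free of ribosomes, had differences of -0.47 and -0.46 (adjusted p = 0.0111 and 0.00882, limma).

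The large subunit contributed 17 called rows of 51 (33.3%, against 25.8% of all rows), of which 14 were higher. Besides the genes described above these were RPL3, at the peptidyl transferase centre, RPL4, RPL7, RPL8, RPL10, RPL17, RPL19, RPL30 and RPL35A. RPL4, whose loop reaches into the peptide tunnel, read 12.40, 12.36 and 12.38 in U-HO1 and 11.88, 11.91 and 11.74 in L-1236 (0.54, SE 0.092, adjusted p = 0.00089). RPL17 differed by 0.57 (adjusted p = 0.000441, limma) and RPL3 by 0.39 (adjusted p = 0.0111). Lower rows were those of RPL13, RPL29 (-0.49, adjusted p = 0.00249) and RPL34 (-0.32, adjusted p = 0.0321). None of the 3 rows of the acidic stalk proteins RPLP1 and RPLP2, which recruit the GTPase factors, was called (differences of 0.09 to 0.18). Nor was any row of RPL5, which with RPL11 holds MDM2 in nucleolar stress (3 rows, 0.20 to 0.26, smallest adjusted p = 0.093), or of RPL11 (-0.20, adjusted p = 0.308).

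The paralogs did not move in 1 direction. Of 10 paralog rows, 40% were called, against 25.8% of all rows. Called were 3 higher (RPL26L1, RPL36AL and RPL39L, the form of RPL39 known from testis and tumours) and 1 lower. That 1 was RPL7L1, a pre-ribosomal relative of RPL7: row 8180356 read 10.02, 9.83 and 9.98 in U-HO1 and 10.41, 10.55 and 10.44 in L-1236 (-0.52, SE 0.090, limma adjusted p = 0.000941), with no overlap, while its row 8119595 differed by 0.02 (adjusted p = 0.945). RPL7 had rows at 0.32, 0.44 and 0.60, of which the middle one was called (adjusted p = 0.0177). RPL39L differed by 0.39 (adjusted p = 0.00545). RPS27L differed by -0.33 (adjusted p = 0.131), and the 2 rows of its parent RPS27 by 0.21 and 0.22 (adjusted p = 0.592 and 0.134). The 2 rows of RPS15, which has no paralog here, differed by 0.18 and -0.09 (limma adjusted p = 0.144 and 0.451). RPL22L1, which takes the place of RPL22 in some cells, differed by -0.10 and RPL22 by 0.07, and the muscle form RPL3L by -0.09 (adjusted p = 0.695, 0.787 and 0.566). RPL10L, the copy of RPL10 used in male germ cells, differed by 0.17 (adjusted p = 0.238) and RPL10 by 0.45 (adjusted p = 0.0407). Differences between a paralog and its parent were not tested.

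Rows of 1 gene often disagreed. Of the 22 genes with several rows, 3 had every row called (RPL23A, RPL31 and RPS7), 9 had some rows called and 10 had none. In 4 genes the rows had both signs, in none with calls in both directions. The rows of a gene lay a median of 0.19 apart, and at most 1.06 (RPL26L1). Ribosomal protein genes have many processed copies in the genome, and whether probes of a row also match such copies was not tested. The 21 rows of ribosomal protein pseudogenes had 2 rows called higher and 6 called lower (38.1%, against 25.8% of all rows), with a median of 0.04.

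Directions of the line differences were kept on the other 6 arrays, in the members and in the whole table alike. All 32 rows called on control arrays kept their direction on knockdown arrays, as did 8259 of the 8343 called over the whole table. Of the 32, 23 were called again (71.9%, against 78.8% of the 8343 rows). These 23 were 85.2% of the 27 called on knockdown arrays. With a fold of at least 1.5 as well, 3 member rows were called higher and 4 lower on knockdown arrays, against 7 and 1 on control arrays. These were 7.14% of member rows on knockdown arrays, against 12.8% of all rows. On control arrays they were 8.16%, against 13.1% of all rows. In 21 member rows all 6 U-HO1 arrays lay above all 6 L-1236 arrays (21.4%, against 11.8% of all rows), and in 7 rows all lay below (7.14%, against 11.5%).

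**Figure D3:**
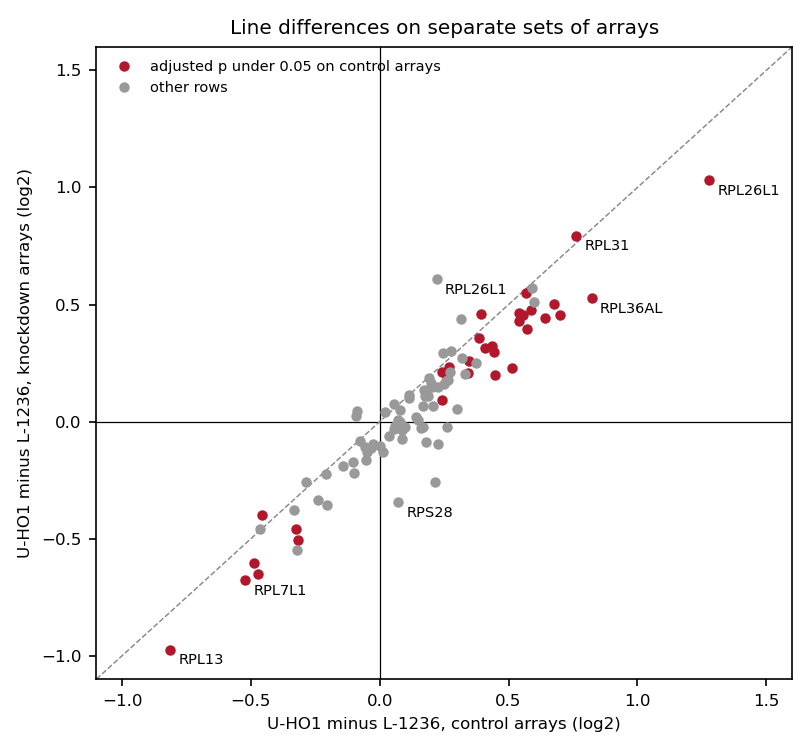
Log2 difference of U-HO1 minus L-1236 on the arrays labelled knockdown (vertical) against that on the arrays labelled control (horizontal) for the 98 rows; the dashed line marks equal values. The sets share no array, and RPL26L1 and RPL13 are at the extremes on both. All 32 rows called on control arrays keep their sign, as do 8259 of the 8343 rows called over the whole table.

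A pair of other sets of genes with related duties were read beside them. Of 74 rows of mitochondrial ribosomal proteins, 37 were called (28 higher, 9 lower, median 0.13), and of 79 rows of oxidative phosphorylation subunits, 28 (27 higher, 1 lower, median 0.17). The shares called were 50% and 35.4%, against 25.8% of all rows and 40.2% of rows at or above the median level. The differences between these counts and that of the members were not tested. FAU, whose product is cut to the small-subunit protein eS30 and which the naming rule leaves out, was higher in U-HO1 by 0.50 (adjusted p = 0.00206, limma).

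Some rows of genes that work on or beside the ribosome also differed between the lines. So did 25.8% of all rows and 40.2% of rows at or above the median level. Of 24 rows of translation factors and other TOP mRNAs, 8 were called and all 8 were higher in U-HO1 (median of the 24 rows 0.24). Among them were the initiation factors EIF3H (0.80, adjusted p = 4.17e-05) and EIF4A2 (0.79 by its called row, adjusted p = 5.09e-05, and 0.22 by the other) and the elongation factor subunit EEF1D (0.60, adjusted p = 6.47e-05, and -0.02 by its other row). Of 32 rows for rRNA processing and subunit assembly, 13 were called higher and 1 lower, with a median of 0.32; LTV1, which assists small-subunit maturation, was higher by 1.21 and RRS1, which loads the 5S particle, by 1.16, while the kinase RIOK2 was lower by 0.49 (adjusted p = 2.39e-05, 0.000138 and 0.00273). The machinery of RNA polymerase I had 2 rows higher and 5 lower of 15, with TAF1A at -0.86 and TAF1D at 0.64 (adjusted p = 6.51e-05 and 7.72e-05).

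Chaperones, importers and late assembly factors had 7 of 21 rows higher and 1 lower, led by the importin IPO7 (1.53, adjusted p = 7.45e-05), the histone chaperone NAP1L1 (0.87, adjusted p = 0.000134) and a row of nucleophosmin, NPM1 (1.10, adjusted p = 0.000183). Of 14 rows of the mTOR pathway and LARP1, 3 were higher and 3 lower: LARP1, which binds TOP starts, was higher by 0.97, the mTOR target EIF4EBP1 by 0.81, and TSC1, an inhibitor of mTOR, lower with a difference of -0.64 (adjusted p = 7.73e-05, 7.48e-05 and 3.54e-05). MTOR row 7912412 was also among the lower ones, at -0.38 (limma adjusted p = 0.0322). Of 11 rows of transcription factors of ribosomal protein genes, TBPL1, whose fly counterpart serves ribosomal protein promoters, was higher (1.00), MXD1, an antagonist of MYC, lower (-1.62) and GABPA lower by 1 of 2 rows (-0.54), at adjusted p = 2.46e-05, 0.000157 and 0.00447; 5 rows were called in all, 3 of them higher. These lists are not independent of the whole-table difference between the lines, where 25.8% of rows were called. The share called ran from 33.3% in the list of translation factors to 46.7% in that of RNA polymerase I. It was 40.2% in rows at or above the median level and 45.0% in rows within the quartiles of the member levels. The levels of the lists themselves were not set beside those of such rows, and the differences in share were not tested.

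Many ribosomal protein genes carry small nucleolar RNAs in their introns. Of 29 such snoRNA rows, 2 were called higher and 3 lower (17.2%, against 25.8% of all rows), with a median of -0.04. SNORD58A was higher by 0.46 (adjusted p = 0.00672, limma) as was its host RPL17, SNORA33 was higher by 0.62 (adjusted p = 0.00482) and SNORA27 lower with a difference of -0.53 (adjusted p = 0.0015). In 13 pairs of a snoRNA and a measured host gene, 9 had the same sign. RPL3, RPL27A and RPS3 recur as hosts, and every host but RPL7A had a positive difference. Only SNORD58A and RPL17 were both called, and the sharing of sign was not tested.

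Position on the chromosome moved with the line difference. For each member gene, by its brightest row, the median difference of up to 10 measured protein-coding genes on each side, other members left out, was set beside its own. Over the 65 genes the 2 values had a Pearson r of 0.59 (Spearman 0.55), given as a description, since the genes come from the same arrays and nearby genes share neighbours. Over 16832 other genes the same r was 0.25, and over the 10309 of these at or above the median level 0.31. It was 0.58 on the knockdown arrays and 0.51 without RPL36AL, RPS29, RPL10L, RPL13 and RPL7L1. The relation, and the 5 genes left out, were chosen after the values were seen. Each row was placed at its gene's RefSeq position. Where its probes lie was not known, so a row that reads a processed copy elsewhere could not be recognised.

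The neighbours of RPL36AL and RPS29, which lie close together, had a median of 0.60, and 18 of 20 were positive. Those of RPL10L, elsewhere on chromosome 14, had a median of 0.49, with RPL10L itself at 0.17. At the other end, RPL13 stood among genes with a median of -0.37 and RPL7L1 among genes with -0.36. RPS25 (-0.24) and RPL7A (-0.03) had neighbour medians of -0.35 and -0.33. On chromosome 8 the 4 member genes RPL7, RPL8, RPL30 and RPS20 were all positive, and the other brighter genes of that chromosome had a median of 0.32. All 6 member genes of chromosome 17 were positive too (median 0.26, others 0.11).

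RPL31 and RPL4 differed from their surroundings, at 0.64 and 0.54 beside neighbour medians of -0.03 and -0.02, with 9 of 20 neighbours positive for each. RPL26L1, at 1.28 by its brightest row, had a neighbour median of 0.19 with 18 of 20 neighbours positive. The neighbours thus had the sign and not the size of that row, while the gene's other row, 8110018, differed by 0.22. On chromosome 19, 7 of 8 member genes were positive while the other brighter genes had a median of -0.08.

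**Figure D4:**
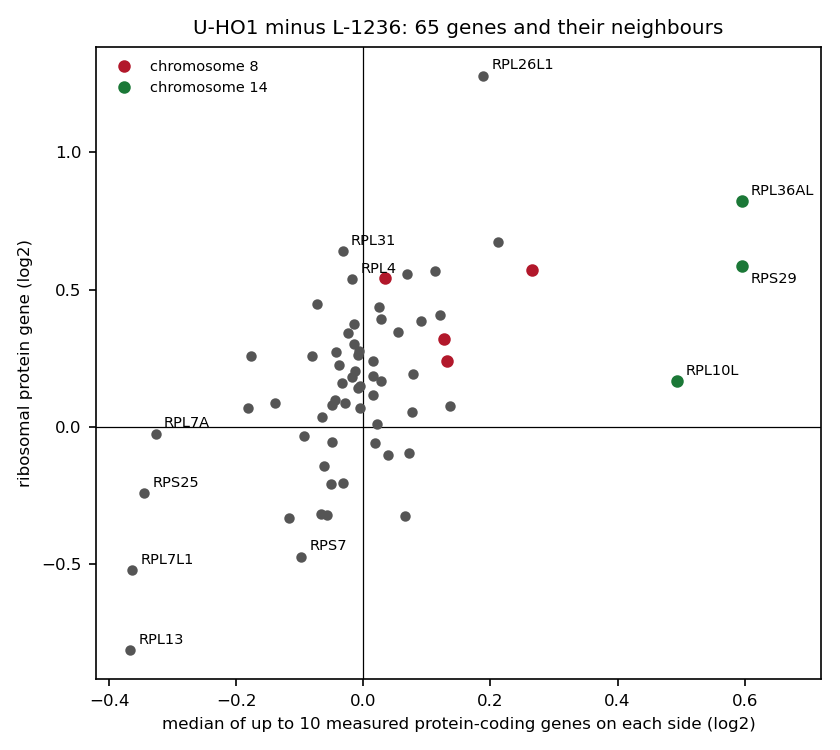
Log2 difference of U-HO1 minus L-1236 on control arrays for the 65 member genes (vertical, brightest row) against the median of up to 10 measured protein-coding genes on each side (horizontal). RPL36AL and RPS29 at upper right and RPL13 and RPL7L1 at lower left lie with their neighbours, RPL31 and RPL4 are high among genes near 0, and RPL26L1 is the highest point, above neighbours with a median of 0.19.

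The comparison the study was built for set the GATA-3 shRNA against the control shRNA within each line. In L-1236, no member row passed an adjusted p under 0.05 (limma), nor did any row of the table (0%), and none met the submitters' own criteria of an FDR up to 25% with a fold of 1.5. 4 member rows had an unadjusted p under 0.05, all higher in knockdown arrays (4.08%, against 4.77% of all rows). Of 98 differences 83 were positive all the same (84.7%), with a median of 0.07. Over all rows 46.7% were positive, and over rows at or above the median level 61.4%, with a median of 0.04. In rows within the quartiles of the member levels, 81.1% were positive with a median of 0.11.

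The 4 rows were those of RPL36AL, RPS15, RPS27 and RPS28. RPL36AL read 9.20, 9.04 and 9.11 in L-1236 knockdown arrays, against 8.75, 8.79 and 8.94 in L-1236 control arrays, without overlap (0.29, SE 0.089, limma adjusted p = 0.925). RPS15 row 8024299, for a protein of the small-subunit head, read 11.35, 11.35 and 11.50 in knockdown arrays and 11.27, 11.04 and 11.11 in control arrays (0.26, SE 0.082, adjusted p = 0.925). RPS27 row 8079019, for a zinc-finger protein of the platform, read 11.81, 11.58 and 11.75, against 11.32, 11.38 and 11.58 in control arrays, with the lowest knockdown value level with the highest control value (0.29, SE 0.10, adjusted p = 0.925). RPS28 row 8005471 read 10.74, 10.39 and 10.62 against 10.04, 10.47 and 10.34 in control arrays, with overlap (0.30, SE 0.13).

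The smallest p-values in the other direction belonged to RPL26L1 row 8110018 (-0.20), RPL13 row 8180283 (-0.13), RPS15 row 8024304 (-0.09) and RPS28 row 7942824 (-0.11), with adjusted p from 0.925 to 0.927. RPL26L1, with row 7945740 at 0.12, RPL13, with its other rows at 0.14 and 0.15, RPS15 and RPS28 thus had rows of both signs. In 7 member rows all knockdown arrays lay above all control arrays (3.24% of all rows did) and in 2 all lay below (7.45% of all rows).

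The positive shift in L-1236 rested largely on 1 array. Knockdown replicate 3 was the highest of the 6 L-1236 arrays in 54 of 98 member rows (55.1%, against 19.7% of all rows). Its member mean was 10.11, against 9.97 and 9.95 on the other knockdown arrays and 10.00, 9.90 and 9.91 on the control arrays. Its median deviation from the line mean was 0.15 over member rows and 0.05 over rows at or above the median level. Its means of mitochondrial ribosomal proteins (8.75) and oxidative phosphorylation subunits (9.24) were also the highest of the 6 arrays. Leaving out knockdown replicate 3 gave 52 positive rows with a median of 0.01. Leaving out control replicate 3 gave 65 positive rows with a median of 0.04. Without each of the other 4 L-1236 arrays in turn, 68 to 88 rows were positive, with medians of 0.06 to 0.10. With quantile normalization of all 12 arrays, 62 rows were positive with a median of 0.02. Mitochondrial ribosomal proteins (64 of 74 positive, median 0.10) and oxidative phosphorylation subunits (67 of 79, median 0.10) leaned the same way. The mean of 31 interferon response genes varied among the L-1236 arrays as well, at 8.97, 9.54 and 8.32 on knockdown arrays against 7.86, 7.70 and 9.72 on control arrays, and its part in the member values was not tested.

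**Figure D5:**
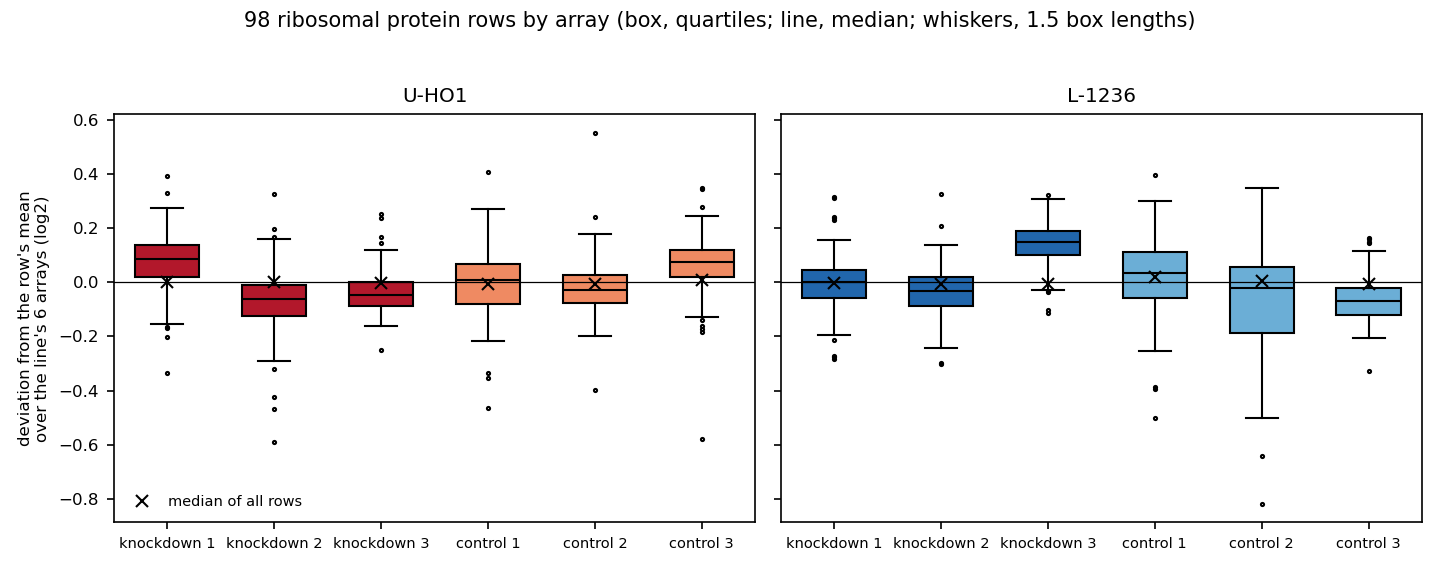
Deviation of each of the 98 member rows from its mean over the 6 arrays of its line, by array, with boxes for quartiles and crosses for the median of all 32321 rows. L-1236 knockdown replicate 3 sits highest, with a median of 0.15, L-1236 control replicate 2 has the widest spread and the lowest single rows, and the crosses stay near 0.

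L-1236 control replicate 2 stood apart for a subset of members only. It was the lowest of 6 arrays in 32 rows (32.7%, against 14.7% of all rows), and its median deviation was -0.02. RPS13, which lies near a bridge between the subunits, read 10.43 there and 11.32 to 11.54 on the other L-1236 arrays. RPL29 row 8086148 read 10.48 there and at least 11.14 elsewhere in the line. These rows were chosen after their values were seen. Without that array the line comparison gave 31 called member rows, 21 higher and 10 lower.

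In U-HO1, no member row passed an adjusted p under 0.05 (limma; 0% of all rows), none met the submitters' criteria, and none had an unadjusted p under 0.05, against 1.05% of all rows. Of 98 differences 31 were positive (31.6%, against 49.0% of all rows), with a median of -0.02. This direction was not kept when single U-HO1 arrays were left out: 55 rows were positive without knockdown replicate 2 and 55 without control replicate 3, each with a median of 0.01, and 48 without knockdown replicate 3. Without each of the other 3 U-HO1 arrays in turn, 19 to 36 rows were positive. The rows of RPS15 differed by -0.01 and 0.04, those of RPS27 by -0.04 and -0.03. The rows with the smallest p-values were RPL26L1 row 8110018 (0.18), RPL3L (0.09), RPL39L (0.08) and RPS7 row 8005877 (0.09) upwards, and RPL12 row 8164210 (-0.17), RPL26L1 row 7945740 (-0.12), RPS24 (-0.13) and RPL13 row 8180283 (-0.10) downwards, all at adjusted p = 1. RPL12, a protein at the base of the stalk, read 7.75, 7.77 and 7.74 in row 8164210 on knockdown arrays. On control arrays that row read 7.82, 7.97 and 7.98, without overlap and with an unadjusted limma p of 0.13. The brighter RPL12 rows 8047635, 8063473 and 8125750 differed by -0.0064, -0.0005 and 0.0095. RPS7 row 8040036 differed by -0.07, and RPL13 rows 7997933 and 8180284 by 0.03 and -0.01, so rows of these genes disagreed. In 2 member rows all knockdown arrays lay below all control arrays and in 0 all lay above (1.99% and 1.80% of all rows). Knockdown replicate 1 was the highest U-HO1 array in 42 rows and knockdown replicate 2 the lowest in 35, so the knockdown arrays spread on both sides of the controls.

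The difference between the knockdown effects, U-HO1 minus L-1236, was tested as an interaction. No member passed (smallest adjusted p = 1, limma; 0% of all rows), and 5 rows (5.10%) had an unadjusted p under 0.05, against 2.46% of all rows. The smallest p-values upwards were those of RPL26L1 row 8110018 (0.39, SE 0.15), followed by RPS15 row 8024304 (0.13), RPL3L (0.12) and RPL39L (0.07). Downwards they were those of RPL36AL (-0.30), RPS15 row 8024299 (-0.27), RPS27 row 8079019 (-0.32) and RPS28 row 8005471 (-0.42). The 3 rows of RPL13 had differences of effect of -0.11, 0.03 and -0.16, and RPS27 row 7900157 one of -0.47 (SE 0.32). RPL36AL and the RPS15, RPS27 and RPS28 rows named here are those with an unadjusted p under 0.05 in L-1236, where the comparison uses the same arrays, and none of the differences of effect was called.

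The median SD within a group was 0.13 over member rows, 0.12 over all rows and 0.15 over rows at or above the median level. The rows of RPL26L1 (7945740), RPL36AL and RPL13 (8180284) named above differed between the lines by several times this spread.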

How the data were processed

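The deposited table holds log2 values, the base being inferred from their range; the authors used R 2.8.1, per the submitters' processing notes, and Bioconductor, per the design text. Background correction, normalization and build are not stated in the sources used here. Rows were named by GEO's platform annotation, 19158 with 1 symbol, 1388 with several and 11775 with none. Symbols were checked against RefSeq (GRCh38.p14), where 19128 rows matched by Entrez number and no symbol changed. The same table gave the order of genes along chromosomes.

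All 12 arrays were fitted with 4 group means in limma 3.58.1 (R 4.3.3), with empirical Bayes moderation on 8 residual degrees of freedom and Benjamini-Hochberg adjustment over 32321 rows; no values were filtered. A fold change is 2 to the power of the log2 difference. The script was tested on simulated data. The members and lists were chosen with earlier results of these data known. Named are members past an adjusted p of 0.05 and a fold of 1.5 between lines, with their other rows. Named too are the 4 smallest p-values each way per knockdown comparison, RPL13, RPS15, RPS27, paralogs and parents. Other members with values were chosen after these were seen. Of the other lists up to 3 rows with the smallest p are named, while all 6 Hodgkin markers are given. MTOR was added after its value was seen. Alternatives varied scaling, dim rows, prior, weights, rows per gene, a replicate block and single arrays. Precision is limited by 3 arrays per group. A list of genes tied to nucleolar stress and some core genes are not reported here.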

Additional observations from a re-analysis of the deposited data

How the results depend on the processing

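The 32 called members between the lines became 52 with all 12 arrays. That was 53.1%, against 35.1% of all rows and 52.8% of rows at or above the median level. With 1 array left out the count was 25 to 33. The fit with a replicate block gave 32, with 24 higher and 8 lower. The median line difference of 0.18 was 0.072 with quantile normalization, 0.066 on knockdown arrays and, near 0 by construction, 0.018 with arrays centred on the ribosomal protein mean. No alternative gave a called member in either knockdown comparison or in their difference. Unadjusted calls in L-1236 (4) were 1 with quantile normalization, 10 with array medians centred, 2 with quality weights and 3 to 7 with 1 array left out; in U-HO1 (0) they were 1 with quality weights and 0 to 1 with 1 array left out. For the difference of effects (5) they were 2 with the replicate block and 2 without dim rows, 3 with 1 row per gene and 3 with quality weights, 1 with a trended prior, 0 with quantile normalization, 0 without knockdown replicate 1 and control replicate 3 in both lines, and 1 to 7 with 1 array left out. Whether the replicate numbers pair the samples is not known. Same-numbered arrays correlated between -0.40 and 0.17 in L-1236 and between -0.17 and 0.32 in U-HO1. These values cannot decide it, since deviations from means of 3 arrays give correlations that balance around 0 by construction. The causes were not tested.

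Sign changes fell on uncalled rows. On knockdown arrays the line difference was -0.26 and -0.098 for the RPS27 rows 7900157 and 8079019, -0.011 for RPL22, -0.11 for RPL13 row 7997933, 0.026 for RPL3L, and -0.085 and 0.044 for the RPS15 rows. With arrays centred on the ribosomal protein mean it was -0.089 for RPL22, -0.16 for RPL13 row 7997933 and -0.14 for RPL7L1 row 8119595. With all 12 arrays it was -0.023 for RPS27 row 7900157 and -0.052 for RPL13 row 7997933, and with quality weights -0.022 for RPS27 row 7900157 and -0.055 for RPL7L1 row 8119595. With 1 array left out, it ran from -0.048 to 0.19 for RPL22, -0.049 to 0.082 for RPL13 row 7997933, -0.23 to 0.054 for RPL22L1 and -0.064 to 0.12 for RPL7L1 row 8119595. GATA3 in L-1236 (0.04) was -0.071 with quantile normalization, -0.037 with quality weights, -0.37 without knockdown replicate 1 and control replicate 3, and -0.19 to 0.22 with 1 array left out. RPL39L's difference of effects (0.07) was -0.0016 with array medians centred and -0.0069 to 0.15 with 1 array left out.

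The neighbour correlation of 0.59, with its alternatives chosen after seeing the data, was 0.54 with 5 neighbours a side, 0.52 over 43 genes with 1 row and 0.51 without the 5 named genes; it was 0.56 to 0.59 with 1 array left out.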

Other observations

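Within L-1236 the members did not vary as 1 block. On control replicate 2, 2 rows lay at least 0.5 below their line mean on the log2 scale while 45 of 98 rows lay above it, and on knockdown replicate 3, 90 of 98 lay above it. In U-HO1 the corresponding counts above the line mean were 77, 22 and 26 on the knockdown arrays and 51, 35 and 81 on the control arrays. The rows with the largest pooled SD within groups were those of RPS9 (8031152, 0.34), RPL7 (7917906, 0.33), RPS27 (7900157, 0.33) and RPS13 (7946812, 0.32), each chosen after its value was seen.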
